A study of Mus musculus with 3 samples.

Results

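The BCL2 family of survival and death genes was examined in activated Treg, regulatory T cells, which carry the factor Foxp3 and damp the responses of other T cells. The members were the 10 symbols Bcl2, Bcl2l1, Mcl1, Bcl2l11, Bax, Bak1, Bid, Bad, Bbc3 and Pmaip1, taken by their gene identifiers in the GENCODE M21 annotation, together with all their annotated transcripts. All 10 were found among the 55536 mouse genes measured. The cells were primary cells from a male mouse aged 3 weeks, and polyadenylated RNA was sheared and sequenced as 3 libraries. The labels name these libraries technical replicates 1, 2 and 3 of biological replicate 1, so there was 1 group and no control. They give no strain, genotype, agent or duration of activation. Every SD and test below therefore measures the spread between libraries, which may be technical, and not between animals.

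Libraries 1, 2 and 3 held 30362256, 28419259 and 31959927 reads assigned to genes. The 6 Treg markers had a median of 188 TPM and the 4 pan T cell markers a median of 993 TPM, and all 10 were detected in every library, as the label of the cells has it. TPM is a level per transcript length, scaled to a fixed total in each library, and detected means 1 TPM or more in each library. Library 1 stood apart. Its 7 erythroid markers summed to 14030 TPM and all 7 were highest there, while the same sum was 1180 TPM in library 2 and 811 TPM in library 3. Its 8 proliferation markers summed to 585 TPM, with 303 and 421 TPM in libraries 2 and 3. B cell markers summed to between 45.9 and 75.6 TPM, myeloid markers to between 45.1 and 107 TPM and dendritic markers to between 3.08 and 6.77 TPM. Fewer cells of a type and less RNA per cell cannot be told apart in such bulk libraries.

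Proteins of the BCL2 family set whether the outer membrane of the mitochondrion is opened, which releases cytochrome c and starts the caspase cascade. The survival proteins BCL2, BCL-XL (from Bcl2l1) and MCL1 hold the effectors BAX and BAK in check, while BH3-only proteins such as BIM (Bcl2l11), BID, BAD, PUMA (Bbc3) and NOXA (Pmaip1) bind the survival proteins through a short helix, the BH3 domain, and some of them also activate the effectors directly. In mice, Treg depend on MCL1 for survival, and BIM is a main driver of their death when interleukin 2 is scarce.

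The BH3 region is what the 3 roles have in common, and BH3-only proteins bind the survival proteins through theirs. The stretches below are the coding DNA of that region in mm10, read in the direction of the gene from the GENCODE M21 transcripts of 9 members. The capitals mark the 6 codons of the core, found as the pattern leucine, any 3 residues, glycine, alanine or serine, then aspartate, with 4 codons on either side.
Mcl1 (chr3:95659424-95659465, plus strand): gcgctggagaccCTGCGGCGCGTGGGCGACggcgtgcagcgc
Bcl2 (chr1:106712572-106712613, minus strand): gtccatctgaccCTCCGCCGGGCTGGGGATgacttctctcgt
Bcl2l1 (chr2:152829694-152829735, minus strand): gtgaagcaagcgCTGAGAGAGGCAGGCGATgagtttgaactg
Bax (chr7:45465994-45466035, minus strand): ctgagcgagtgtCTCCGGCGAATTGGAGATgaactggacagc
Bak1 (chr17:27022528-27022569, minus strand): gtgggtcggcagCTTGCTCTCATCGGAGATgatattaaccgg
Bcl2l11 (chr2:128147138-128147179, plus strand): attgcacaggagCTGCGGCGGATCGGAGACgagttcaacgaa
Bid (chr6:120897286-120897327, minus strand): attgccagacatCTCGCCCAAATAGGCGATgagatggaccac
Bad (chr19:6950780-6950821, plus strand): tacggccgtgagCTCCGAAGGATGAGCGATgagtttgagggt
Bbc3 (chr7:16313761-16313802, plus strand): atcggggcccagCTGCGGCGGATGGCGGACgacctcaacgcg

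Over the 36 pairs of these 9 cores, between 7 and 15 of the 18 bases were the same, with a median of 11. The pattern alone is common, since the main coding transcript of 6853 of 21901 coding genes (31.3%) holds it, so each stretch was taken because it lies in a known family member. The members' transcripts that lack the core and hold a mean share of 10% or more, those of Bcl2l11 and Bak1, are described with the gene below.

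All 10 members were expressed. Their mean levels ran over 2 orders of size, with Mcl1 and Bcl2 at the top, Bax next and Bak1 at the bottom (plot of levels by library). Mcl1 lay at percentile 98.8 of the 22028 protein-coding genes by mean TPM, Bcl2 at 98.3 and Bax at 97.2. Bak1 lay at 54.9.

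**Figure D1:**
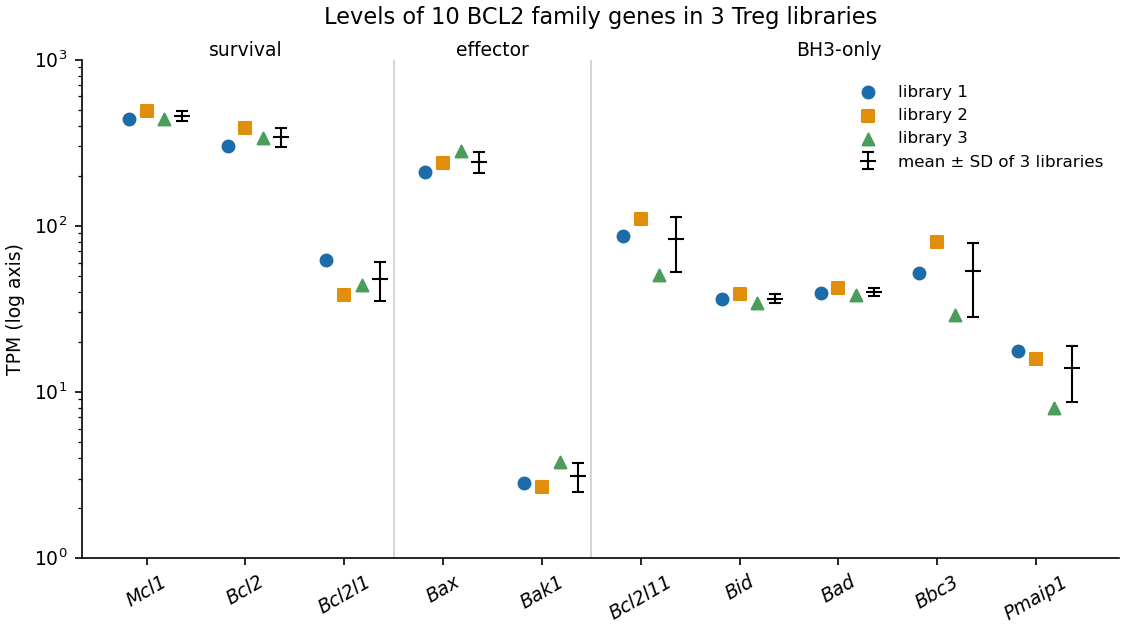
Level of each of the 10 genes in TPM (log axis) in libraries 1, 2 and 3, with the mean and SD of the 3 beside them, grouped by role. Mcl1, Bcl2 and Bax lie at 211 TPM or above in every library, and Bak1 lies at 3.79 TPM or below.

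Among the survival genes, Mcl1, which encodes a short-lived survival protein, had 441, 492 and 440 TPM in libraries 1, 2 and 3, or 458 ± 29.7 TPM (SD, n = 3 libraries). It lies on chromosome 3 from 95658788 to 95663176 on the plus strand of mm10. Bcl2, the founding survival gene, had 300, 390 and 340 TPM, or 343 ± 45.0 TPM, and lies on chromosome 1 from 106538178 to 106714274 on the minus strand. Both were highest in library 2 and lowest in library 1 by TMM-scaled reads. Mcl1 exceeded Bcl2 in each library, by 0.42 ± 0.12 on the log2(TPM + 1) scale, which is beyond the spread in the sense used throughout, namely 1 sign in all 3 libraries and a mean over 2 SD.

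Bcl2l1 (chromosome 2, 152780668 to 152831728, minus strand) encodes BCL-XL. It had 62.2, 38.0 and 43.8 TPM in libraries 1, 2 and 3, or 48.0 ± 12.6 TPM. It was highest in library 1, which is also where all 7 erythroid and 7 of 8 proliferation markers were highest; BCL-XL is known for the survival of red cell precursors, and the part of those cells in its level was not tested. Bcl2l1 lay below Mcl1 by 3.26 ± 0.43 and below Bcl2 by 2.83 ± 0.54 on the log2 scale, both beyond the spread. Of the summed TPM of these 3 survival members, which leaves out the Bcl2a1 genes described below, Mcl1 made up 54.0 ± 0.838%, Bcl2 40.3 ± 2.64% and Bcl2l1 5.73 ± 1.84%.

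The transcripts behind these levels differ in what they encode. Both annotated transcripts of Bcl2 were present, with 55.0 ± 4.0% of its TPM in Bcl2-202, of 199 codons, and 45.0 ± 4.0% in Bcl2-201, of 236 codons. The share of Bcl2-202 was above 50% in each library, at 51.2%, 54.7% and 59.2% in libraries 1, 2 and 3. Mcl1-201, of 331 codons, held 74.2 ± 4.54% of Mcl1, and Mcl1-202, of 285 codons, held 25.8 ± 4.54%. Every annotated transcript of these 2 genes encodes the BH3 core. Bcl2l1-201, of 233 codons, held 76.8 ± 7.41% of Bcl2l1 and Bcl2l1-205, of 209 codons, 12.0 ± 4.06%.

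The effectors were far apart. Bax (chromosome 7, 45461697 to 45466898, minus strand), which forms the pores of the outer membrane, had 211, 238 and 281 TPM in libraries 1, 2 and 3, or 243.5 ± 35.7 TPM. Bak1 (chromosome 17, 27019810 to 27029009, minus strand), which encodes the second pore former BAK, had 2.81, 2.66 and 3.79 TPM, or 3.09 ± 0.614 TPM. Both were highest in library 3, and the lowest Bax value was far above the highest Bak1 value. Bax exceeded Bak1 by 5.90 ± 0.12 on the log2 scale, the widest of the 12 ratios computed by TPM. The ratio was 7.83 ± 0.10 with protein-coding transcripts only, where Bak1 had a mean of 0.06 TPM. At so low a level the 1 added makes up most of the denominator, so that value mostly follows Bax. The ratio was 4.70 ± 0.04 in a smaller deposited count table that is not divided by length and whose counts are lower by unlike amounts from gene to gene. Bak1 made up 1.25 ± 0.127% of the summed effector TPM.

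Bak1 was thinly counted, with 103, 89.7 and 157 reads in libraries 1, 2 and 3, against 3458, 3671 and 5312 reads for Bax. The authors' bounds for its TPM were 2.22 to 3.30 in library 1, 2.06 to 3.16 in library 2 and 3.06 to 4.26 in library 3, with the level of the interval not given in the sources used here. Its reads went mostly to transcripts annotated as targets of nonsense-mediated decay. Bak1-201 had 2.81, 1.00 and 0.60 TPM and Bak1-204 had 0.00, 1.66 and 3.01 TPM, while Bak1-202, the full coding transcript of 209 codons, was listed at 0 in all 3 libraries. The libraries did not agree on which of the decay transcripts led. The coding sequence of Bak1-201 holds the BH3 core and that of Bak1-204 does not. Transcripts coding for the core, decay transcripts included, thus held 100%, 37.6% and 20.6% of Bak1 in libraries 1, 2 and 3. By the authors' posterior mean estimate, protein-coding transcripts held 8.76%, 12.3% and 12.1% of Bak1, so the division among its transcripts differs between the authors' estimates. Part of Bak1 overlaps Ggnbp1 on the opposite strand, at 1.05 TPM, and the strand setting of the counting is not given in the sources used here.

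Bax spread over several coding transcripts. Bax-201, of 192 codons, held 48.8 ± 3.98% of its TPM, Bax-203, whose coding sequence is annotated as incomplete, held 27.8 ± 4.85%, and Bax-205, of 171 codons, held 21.9 ± 0.47%. Protein-coding transcripts with the BH3 core made up 98.7 ± 0.152% of Bax. Among the 10 members, Bax and Bak1 were the 2 whose leading transcript did not reach 50% of TPM in each library. By the authors' posterior mean estimate, Bad did not reach it either.

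**Figure D2:**
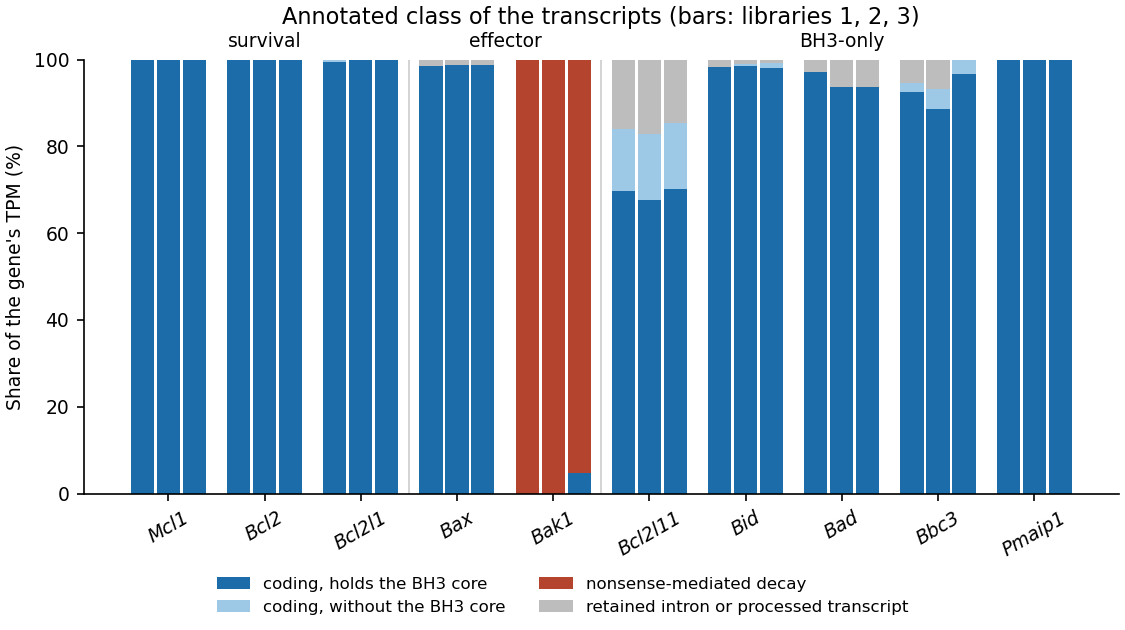
Share of each gene's TPM (percent) in libraries 1, 2 and 3, a bar each, held by protein-coding transcripts with the BH3 core, by protein-coding transcripts without it, by nonsense-mediated decay transcripts and by retained-intron or processed transcripts. The mean share of protein-coding transcripts with the core is 69.2% for Bcl2l11 and 1.58% for Bak1, and 92.7% or more for each of the other 8 genes. With decay transcripts counted too, transcripts coding for the core hold a mean of 52.7% of Bak1.

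Of the 5 BH3-only members, Bcl2l11 was the most abundant. It lies on chromosome 2 from 128126038 to 128162547 on the plus strand and encodes BIM, which binds every survival protein of the family. It had 87.2, 110 and 50.7 TPM in libraries 1, 2 and 3, or 82.7 ± 29.9 TPM. Library 2 was highest, and library 3 was lowest by a wide margin. Bcl2l11 made up 35.9 ± 3.70% of the summed TPM of these 5 genes.

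Bcl2l11-205, the transcript of 196 codons, held 61.5 ± 2.14% of the gene. Bcl2l11-202, of 91 codons, whose coding sequence has no BH3 core, held 14.9 ± 0.599%, and the processed transcript Bcl2l11-208 held 11.6 ± 0.963%. Transcripts coding for the core thus had 60.8, 74.4 and 35.6 TPM in libraries 1, 2 and 3, and their share of the gene was steady at 69.7%, 67.6% and 70.1%. Library 3 was low in Bcl2l11 as a whole, while the division among its transcripts differed little between libraries.

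Bbc3 (chromosome 7, 16308393 to 16318205, plus strand) encodes PUMA, a known target of p53 and of FOXO factors. It had 51.9, 79.8 and 29.2 TPM in libraries 1, 2 and 3, or 53.6 ± 25.4 TPM. As with Bcl2l11, library 2 was highest and library 3 lowest. Bbc3 lay below Bcl2l11 in all 3 libraries, by a log2 ratio of Bcl2l11 over Bbc3 of 0.66 ± 0.17, which is beyond the spread. Bbc3-201, the transcript with the core, held 92.7 ± 4.08% of the gene.

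FOXO factors are known to act on both genes in mice, so the RefSeq promoters (GRCm38.p6, 250 bases before to 50 after each start) were searched for the letters GTAAACA on both strands. Of 32851 promoters, 1199 (3.65%) hold them. Among 15 promoters of 9 members, the matches were 1 of Bcl2l11 and 1 of Bbc3. The windows below show up to 40 bases on either side of the match where the promoter entry reaches that far, and the capitals mark the match, which lies on the strand of the gene in Bcl2l11 and on the opposite strand in Bbc3.
Bcl2l11 (chr2:128125788-128125857, plus strand): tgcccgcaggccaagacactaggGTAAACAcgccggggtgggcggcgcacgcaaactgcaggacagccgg
Bbc3 (chr7:16310054-16310140, plus strand): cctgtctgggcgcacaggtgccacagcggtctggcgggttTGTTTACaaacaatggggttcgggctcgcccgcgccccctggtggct

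The first base of the match lay at -227 from the start of Bcl2l11 and at -167 from 1 of 3 annotated starts of Bbc3, counted in bases. A match is a description of letters and not of binding. Of the other motifs searched, CACGTG (E-box, 7.15% of all promoters) was found in Bax and Bbc3, and CCGGAAG (ETS core, 8.86%) in Bcl2l1, Bcl2l11 and Mcl1. GGGCGG (GC box, 35.66%) was found in 7 of the 9 genes and GGAAA (NFAT core, 61.34%) in 8 of them, so both are common letters. A letter pattern of the p53 half-site (8.36%) was found in Bax. A full p53 element was not searched for, so neither its presence nor its absence is shown. TTCNNNGAA (STAT, 8.30%), TGACGTCA (CRE, 1.79%) and a letter pattern of the NF-kB site (0.41%) had no match in these windows.

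Bid and Bad were the steadiest of the 5 BH3-only members. Bid (chromosome 6, 120891930 to 120916853, minus strand), whose protein is activated by cleavage, had 36.1, 38.7 and 34.3 TPM in libraries 1, 2 and 3, or 36.4 ± 2.22 TPM. Bad (chromosome 19, 6941861 to 6951899, plus strand), whose protein is held inactive by phosphorylation, had 39.2, 42.3 and 38.2 TPM, or 39.9 ± 2.12 TPM. Library 2 was highest for both, by little. Bad exceeded Bid by 0.13 ± 0.02 on the log2 scale, a small gap that was nevertheless beyond the spread.

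Bid-201, of 195 codons, held 98.3 ± 0.194% of Bid. Bad was divided, with 56.1 ± 9.14% in Bad-202, of 162 codons, and 22.9 ± 5.47% in Bad-201, of 204 codons. Bid overlaps Bcl2l13 on the opposite strand, at 20.95 TPM, over a stretch of 629 bases, and Bad overlaps Gpr137, at 8.30 TPM, over 519 bases. Bcl2 likewise overlaps the antisense gene D630008O14Rik, at 9.79 TPM, over 498 bases. Reads from such stretches cannot be told apart without strand, so how they were divided is uncertain.

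Pmaip1 encodes NOXA, which binds MCL1 and favours its breakdown. It had 17.7, 15.7 and 8.02 TPM in libraries 1, 2 and 3, or 13.8 ± 5.11 TPM, the lowest of the 5 BH3-only members. Library 1 was highest and library 3 lowest. Pmaip1-201, of 103 codons, held 71.3%, 70.6% and 100.0% of it in libraries 1, 2 and 3, the rest being Pmaip1-203, of 51 codons, which was listed at 0 in library 3.

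Set against each other by role, and over the 10 members only, the 3 survival genes summed to 803.5, 920 and 824 TPM in libraries 1, 2 and 3, the 2 effectors to 213, 241 and 285 TPM and the 5 BH3-only genes to 232, 286.5 and 160 TPM. Survival genes were highest in library 2, effectors in library 3 and BH3-only genes in library 2. The summed survival level exceeded the effector level 3.46-fold, a log2 ratio of 1.79 ± 0.23, and the BH3-only level 3.85-fold, a log2 ratio of 1.94 ± 0.36. The log2 ratio of survival over BH3-only genes was 1.79, 1.68 and 2.36 in libraries 1, 2 and 3, widest in library 3, where the BH3-only sum was lowest.

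Ratios between a survival gene and a BH3-only gene it binds were wide. Mcl1 exceeded Pmaip1 by 5.02 ± 0.54 and Bcl2l11 by 2.52 ± 0.50 on the log2 scale, and Bcl2 exceeded Bcl2l11 by 2.10 ± 0.54. Bcl2l1 and Bad, by contrast, differed by 0.23 ± 0.40, with Bcl2l1 higher in libraries 1 and 3 and Bad higher in library 2, which is within the spread. Of the 12 ratios, 10 were beyond the spread (plot of log2 ratios). The other one within it was Bad against Bcl2l11, at -0.96 ± 0.50, and Bid against Bcl2l11, at -1.10 ± 0.48, was only just beyond it. The smallest p that a sign-flip test of 3 libraries allows is 0.25, so no test of a ratio was made.

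**Figure D3:**
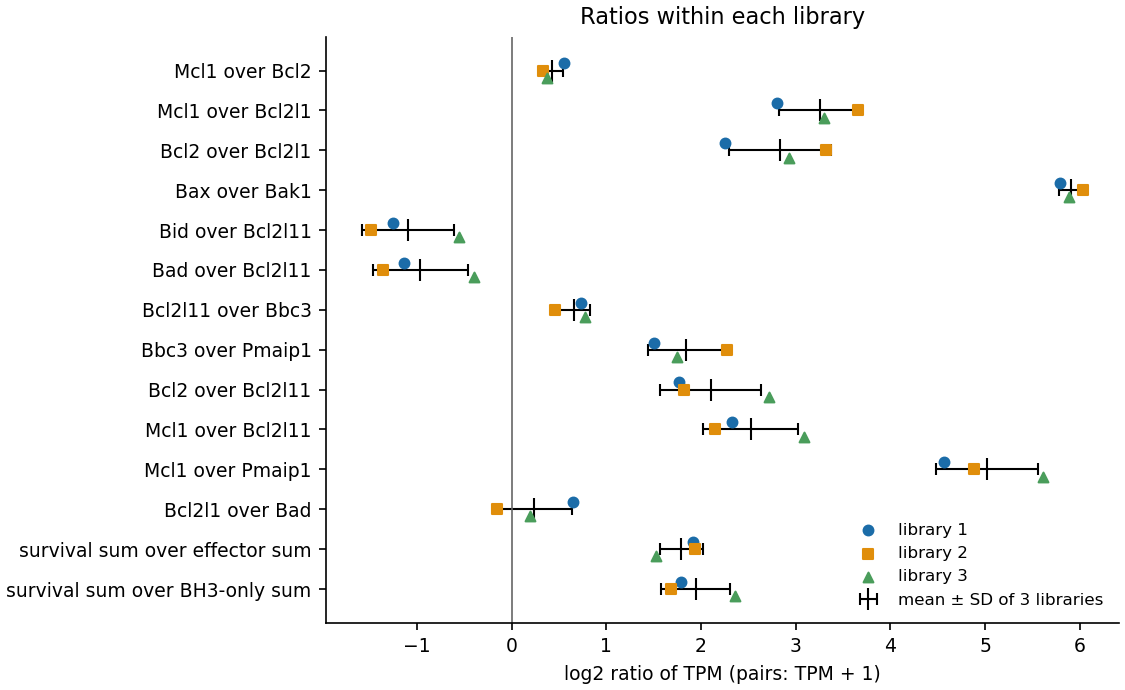
Log2 ratio of TPM + 1 between the genes of 12 pairs and between summed roles, each point a library and the bar the mean with SD (n = 3 libraries); summed roles have no 1 added. Bax over Bak1 lies near 5.9 in all 3 libraries, and Bcl2l1 over Bad crosses 0.

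By mean level the order was Mcl1, Bcl2, Bax, Bcl2l11, Bbc3, Bcl2l1, Bad, Bid, Pmaip1 and Bak1. Of the 9 neighbours in it, 7 were apart by more than their spread. Bbc3 and Bcl2l1 were not, at 0.07 ± 0.86 on the log2 scale, and nor were Bcl2l1 and Bad. With library 1 left out, 4 of the 9 neighbours were apart.

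How far each member differed between libraries was then compared with all genes. By reads scaled for library size (TMM), 6 of the 10 members were highest in library 2 (29.4% of all genes were), 2 in library 1 (31.6%) and 2 in library 3 (39.1%), and 5 were lowest in library 1 (31.6%), 2 in library 2 (30.9%) and 3 in library 3 (37.5%). A chi-square test with 2 degrees of freedom, on expected counts against effective library sizes, called 8 of the 10 members at an adjusted p below 0.05. It called 80.0% of the 17190 genes tested, so that count is the background. Bid (adjusted p = 0.235) and Bad (adjusted p = 0.163) were not called by this chi-square test. A stricter form, in which chi-square is divided by 20.4, the value that brings the median gene to its expected level, called 11.2% of all genes and 5 of 10 members, namely Bcl2, Bcl2l1, Bax, Bcl2l11 and Bbc3. In this scaled chi-square test the adjusted p was 1.9e-07 for Bcl2, 1.4e-05 for Bbc3, 0.00699 for Bax and 0.0368 for Bcl2l1, and it was 0.0509 for Mcl1, 0.160 for Pmaip1 and 1.0 for Bak1. High counts let small differences pass: Bcl2, with 27976, 32664 and 34532 reads, was called although its highest library was 1.25-fold above its lowest.

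In size, the highest library exceeded the lowest 2.35-fold for Bbc3, 1.96-fold for Pmaip1, 1.95-fold for Bcl2l11, 1.60-fold for Bcl2l1, 1.53-fold for Bak1 and 1.44-fold for Bax, after scaling by effective library size. Bcl2 followed at 1.25-fold, Mcl1 at 1.14-fold, Bad at 1.10-fold and Bid at 1.07-fold. More than 1.5-fold was reached by 5 members, against 48.9% of all genes, and more than 2-fold by Bbc3 alone, against 27.8%. The median was 1.48-fold for the members and 1.48-fold for all genes tested, many of them thinly counted, and 1.33-fold for the 11113 genes with a mean of 100 reads or more. Among those 11113 genes, Bid lay at percentile 4.33, Mcl1 at 15.2, Bcl2l11 at 88.6, Pmaip1 at 88.8 and Bbc3 at 94.0.

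**Figure D4:**
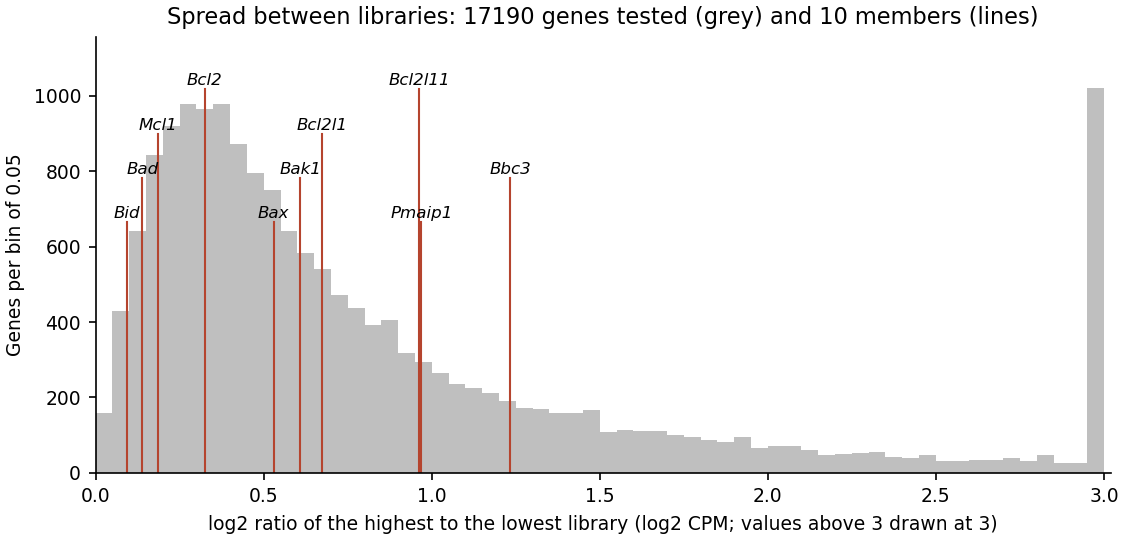
Histogram of the log2 difference between the highest and the lowest library for the 17190 genes tested (mean of 10 reads or more), with the 10 members marked by lines. Bid, Bad and Mcl1 lie in the lower part, and Bbc3, Pmaip1 and Bcl2l11 in the upper part; values above 3 are drawn at 3.

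By scaled reads, 3 of the 10 members were lowest in library 3, which is not above the 37.5% of all genes that were. These were Bcl2l11, Bbc3 and Pmaip1, while the other BH3-only members, Bid and Bad, were lowest in library 1. Bcl2l11, Bbc3 and Pmaip1 together had 157, 206 and 87.9 TPM in libraries 1, 2 and 3. The low sum in library 3 follows from how these genes were chosen. By TPM, Mcl1, Bid and Bad were lowest in library 3 too, by little. Bcl2l11 and Bbc3 shared the order with library 2 highest and library 3 lowest, as did 18.0% of all genes. Library differences moved with transcript length, with a Spearman rho across genes of 0.144 in library 1, 0.175 in library 2 and -0.257 in library 3, so longer transcripts tended to be lower in library 3. Genes are not independent replicates, and no p is given.

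With a quadratic trend in transcript length and GC content removed, the same 3 members were still lowest in library 3, as were 41.7% of all genes. The difference between highest and lowest library was then 1.01 for Bcl2l11, 0.86 for Bbc3 and 1.14 for Pmaip1 on the log2 scale, against 0.96, 1.23 and 0.97 before. Bcl2l11 and Pmaip1 thus passed 2-fold after the trend was removed and Bbc3 no longer did; 27.5% of all genes passed it. In the smaller count table, Pmaip1 had 85, 83 and 70 reads in libraries 1, 2 and 3, and the chi-square test did not call it (adjusted p = 0.337). Bcl2l11 and Bbc3 were still called there. The part of other library properties in the differences of these 3 genes was not tested.

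**Figure D5:**
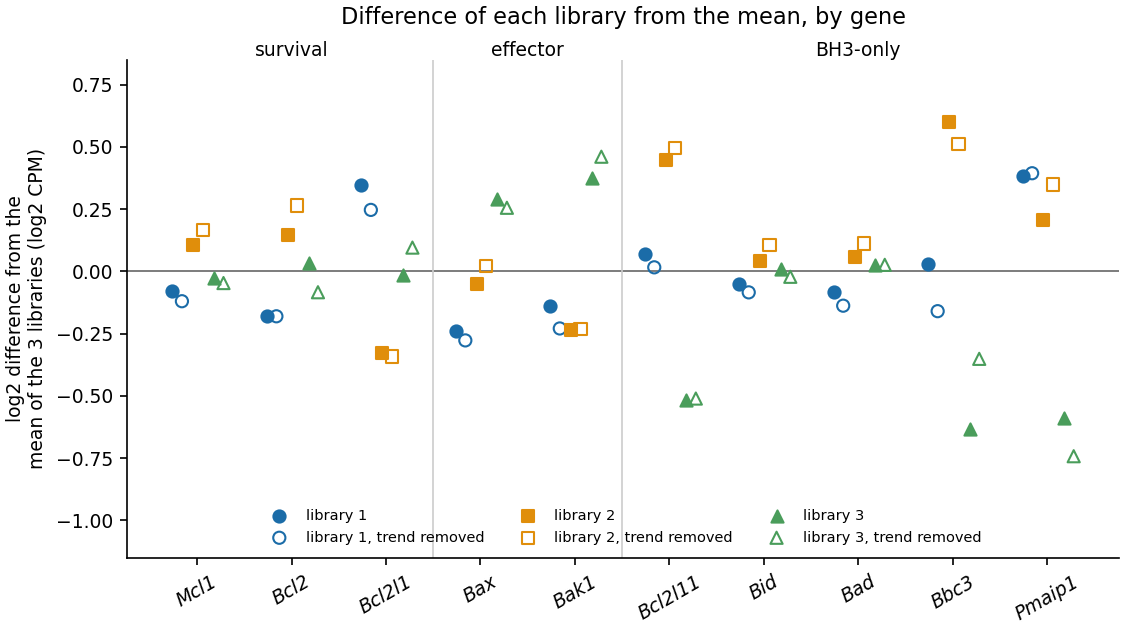
Log2 difference of each library from the mean of the 3 for each gene, on the TMM-scaled log2 CPM scale (reads per library size), as counted (filled) and after the trend in length and GC content was removed (open). Bcl2l11, Bbc3 and Pmaip1 lie at -0.52, -0.63 and -0.59 in library 3 as counted.

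Other members of the family were measured by the same files. Of 15 such genes, 10 were detected. The median over all 15, those not detected included, was 4.96 TPM, against a median of 50.8 TPM over the 10 members. The highest was Bnip3l, which acts in the removal of mitochondria, at 401 ± 33.1 TPM. The survival genes Bcl2a1b and Bcl2a1d followed at 217 ± 1.64 and 109 ± 20.4 TPM, and Bcl2a1a had 4.96 ± 1.66 TPM; these copies are nearly identical in sequence, so how their reads were divided is uncertain. Bcl2l13 had 20.95 ± 4.44 TPM, Bcl2l12 18.9 ± 2.19 TPM, Bnip3 8.74 ± 1.92 TPM, Bik 5.42 ± 2.95 TPM, Bcl2l15 4.71 ± 1.42 TPM and Bcl2l14 2.32 ± 0.439 TPM. Bmf, a BH3-only gene, had 1.24, 3.12 and 0.72 TPM in libraries 1, 2 and 3, and so was not detected in library 3. Library 2 was highest and library 3 lowest for Bmf, Bcl2l13 and Bcl2l15, while Bik, at 8.63, 4.79 and 2.83 TPM, was highest in library 1. Of the 12 genes of this list that could be tested, 10 were called by the chi-square test and 0 by its scaled form, where the background is 80.0% and 11.2%.

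All 13 genes of the mitochondrial death machinery were detected, with a median of 38.3 TPM. The channel genes Vdac2, Vdac3 and Vdac1 were highest, at 171 ± 14.5, 112 ± 5.08 and 80.0 ± 5.25 TPM. The chi-square test called 11 of the 13, against 80.0% of all genes, and its scaled form 1, against 11.2%.

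All 17 regulators of the family were detected, with a median of 86.7 TPM, led by the receptor chain Il2rg at 817 ± 190 TPM, the BAD-binding 14-3-3 gene Ywhaz at 763 ± 34.9 TPM and the receptor chain Il2rb at 717 ± 94.0 TPM. The chi-square test called 16 of the 17, against 80.0% of all genes, and its scaled form 11, against 11.2%. In 10 of the 17 the lowest library was library 3, against 37.5% of all genes.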

How the data were processed

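Per the labels and file headers, each of the 3 libraries had a gene table and a transcript table on mm10 with GENCODE M21, in the column layout of RSEM. The deposited expected counts are the authors' estimates of reads per gene, not normalized. The deposited TPM and FPKM values were scaled by the authors for length, and FPKM served as an alternative. Posterior mean values are a second deposited estimate. A smaller deposited table of read counts per gene (GENCODE M4) served as an alternative only. Its counts were lower by unlike amounts from gene to gene. In library 1, Bcl2 had 1491 reads there against 27976, Bax 995 against 3458 and Pmaip1 85 against 880. The reason was not tested. Not given in the sources used here: the aligner, the quantification program and the strand setting. Spike-in and transfer RNA entries (0.166% to 0.229% of reads) were left out.

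The members, lists, pairs and tests were chosen with earlier results of these data known. All 10 members are named, with the 3 highest of each other list and each further family gene at 1 TPM or more; transcripts are named from a mean share of 10%. Bak1-202 falls outside that rule and was chosen after its values were seen. A gene of the death machinery list is not reported here, though the list's counts include it.

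Rounded expected counts of the 3 libraries were tested by chi-square (2 degrees of freedom) for departure from TMM-scaled library sizes (edgeR 4.0.16, R 4.3.3). The 17190 genes averaging at least 10 reads entered, with Benjamini-Hochberg adjustment and a threshold of 0.05. A quasi-likelihood test needs a contrast, which 1 group does not give. Ratios used log2(TPM + 1), so those of low genes are understated. DESeq2 1.42.0 gave alternative size factors. Length and GC content came from M21 transcripts. BLAST+ 2.17.0 searched for near-identical stretches of 95% or more over 100 bases. The chi-square test was tried on simulated counts with counting error only, so that check does not cover the larger spread between these libraries. Python 3.11.15, numpy 2.4.6, scipy 1.17.1, pandas 2.3.3 and Biopython 1.88 were used. Counting error is small at 28419259 or more reads a library, and only Bak1 had near 100 reads.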

Additional observations from a re-analysis of the deposited data

How the results depend on the processing

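The summed survival level exceeded the effector and BH3-only levels under FPKM, posterior mean TPM, coding transcripts only and each library left out, at log2 ratios of 1.72 to 1.92 and 1.74 to 2.08 with a library left out. In the smaller table, which is not divided by length, survival over BH3-only was 1.06, against 1.94 by TPM. The count of ratios beyond the spread lay between 9 and 11 over all settings, and no mean ratio changed direction. Bid against Bcl2l11 fell within the spread with coding transcripts only (-0.87), in the smaller table (-0.55), without library 1 (-1.02) and without library 2 (-0.90). The count of neighbours apart in the order ran from 4 to 7 with a library left out. Members were sorted anew in each setting, so that count does not show a change of order. Bbc3 lay above Bcl2l1 in library 2 only, at log2 ratios of -0.26, 1.05 and -0.57 in libraries 1, 2 and 3, so their order turns without library 2. With a threshold of 60% in place of 50%, 5 members in place of 8 had a leading transcript that large. By posterior mean TPM and 50%, 7 did, with Bad-202 at 38.1%, 43.0% and 58.5% of Bad in libraries 1, 2 and 3. The chi-square test called 3 of 10 members in the smaller table (65.2% of all genes) and 5 of 10 in its scaled form (11.2%). It called 8 of 10 without library 1 (65.1%), 8 without library 2 (66.2%) and 7 without library 3 (54.1%). Bak1 was lost without library 3 (chi-square adjusted p = 0.723). Over all genes the chi-square test called 7844 of 12026 (65.2%) in the smaller table. It called 11401 of 17500 (65.1%) without library 1, 11773 of 17796 (66.2%) without library 2 and 8880 of 16415 (54.1%) without library 3. No paired analysis was possible because there is 1 group. The 3 libraries come from 1 biological replicate, so no spread between animals can be given, and the transcript division of Bak1 rests on 89.7 to 157 reads a library.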
